A study of Mus musculus with 141 samples.

Results

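The growth hormone and IGF axis is described here through 10 genes of the 24423 listed in each file. They are the growth hormone receptor Ghr, the ligand Igf1, its plasma carrier Igfals, and the 7 IGF binding protein genes Igfbp1 to Igfbp7. The members were taken by name, with no measured value in the rule. RNA was sequenced from liver, lung and kidney of 1 male mouse from each of 47 Collaborative Cross (CC) strains, which gave 141 libraries and 47 per tissue. CC strains are recombinant inbred lines bred from 8 founder strains, so every strain carries its own mosaic of founder alleles. All mice were 8 to 12 weeks old, ate a wafer diet and drank water freely, and spent 6 h per weekday for 2 weeks in mesh chambers supplied with clear air. No group received a test agent, and all mice were anesthetized with injected nembutal before sacrifice. With 1 mouse per strain, a strain effect and the state of that mouse cannot be told apart, and the spread given below is the spread over strains.

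Growth hormone from the pituitary binds its receptor on hepatocytes and, through JAK2 and STAT5B, raises transcription of Igf1 and Igfals. The IGF peptide then travels in plasma, mostly in a large complex with IGFBP3 or IGFBP5 and the acid-labile subunit that Igfals encodes. The other binding proteins form smaller complexes that hold IGF near cells or release it. IGFBP1 is the fast-moving member: its liver gene is repressed by insulin and induced by fasting and glucocorticoids.

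Libraries held 1738046 to 42158454 counts in liver (median 10423382), 2829104 to 17585682 in lung (median 9338124) and 3046695 to 15028553 in kidney (median 8245850). TPM is the level per transcript length scaled to a fixed library total. The ribosomal gene Rn45s and the gene Lars2 together took between 0.0850% and 81.7% of it, with the highest share in the lung of CC015. The depth left for other genes was therefore lower than these totals. Hepatocyte, alveolar type 2 and proximal tubule markers were highest in liver, lung and kidney respectively. Summed over 6 hepatocyte markers, TMM-scaled CPM (counts scaled to a fixed library total, not divided by length) had a median of 93840 in liver, 53.9 in lung and 155 in kidney. The 5 alveolar type 2 markers summed to 4333 to 9877 in lung, and the 5 proximal tubule markers to 12960 to 41720 in kidney. Some smaller lists did not follow the labels: the 3 podocyte markers had a higher median in lung (265.9) than in kidney (193.0), and the 4 hepatic stellate markers a higher one in lung (74.3) than in liver (42.9). Libraries also differed in how log2 CPM depended on the GC content of transcripts, with slopes from -0.572 to 0.734 per 10 percentage points in lung, -0.309 to 0.239 in kidney and -0.308 to 0.201 in liver.

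All 10 members had promoter windows in the RefSeq table for GRCm38.p6, each from 250 bases before to 50 bases after an annotated start. Binding protein genes Igfbp1 and Igfbp3 lie tail to tail on chromosome 11, 3539 bases apart in NCBIM37, and Igfbp2 and Igfbp5 lie likewise on chromosome 1, 5457 bases apart. Their windows are shown because the expression of each neighbour pair differed between tissues, as described below, and that of Igfals because it is the liver carrier gene. Of the 3 Igfals starts, the window with the most kinds of match was picked after the matches were seen. Letters are written 5′ to 3′ on the gene's strand, and capitals mark matches to the motifs searched on both strands: TATAAA (core promoter box), GTAAACA (forkhead), CAAAACA (insulin response), TTCNNNGAA (STAT5) and GGGCGG (GC box).
Igfbp1, chr11:7197537-7197836, plus strand: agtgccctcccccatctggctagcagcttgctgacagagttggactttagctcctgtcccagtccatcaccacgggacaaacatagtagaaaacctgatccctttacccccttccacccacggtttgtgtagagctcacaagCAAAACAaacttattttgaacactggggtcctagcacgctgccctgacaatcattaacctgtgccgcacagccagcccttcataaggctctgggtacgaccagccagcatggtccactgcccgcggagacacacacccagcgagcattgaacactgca
Igfbp3, chr11:7213874-7214173, minus strand: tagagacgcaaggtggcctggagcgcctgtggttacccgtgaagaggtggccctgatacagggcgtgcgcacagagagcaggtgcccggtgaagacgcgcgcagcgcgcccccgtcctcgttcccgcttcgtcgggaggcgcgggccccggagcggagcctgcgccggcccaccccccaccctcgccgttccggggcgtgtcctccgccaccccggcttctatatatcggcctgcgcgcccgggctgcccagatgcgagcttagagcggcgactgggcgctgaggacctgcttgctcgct
Igfbp2, the first of 2 listed starts, chr1:72824230-72824529, plus strand: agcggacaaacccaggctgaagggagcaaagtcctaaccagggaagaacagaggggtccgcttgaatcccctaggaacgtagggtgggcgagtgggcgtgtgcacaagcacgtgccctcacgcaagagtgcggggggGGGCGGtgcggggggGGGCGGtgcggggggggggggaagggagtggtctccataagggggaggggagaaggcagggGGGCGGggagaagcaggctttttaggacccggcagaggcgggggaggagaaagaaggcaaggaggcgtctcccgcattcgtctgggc
Igfbp5, chr1:72874816-72875115, minus strand: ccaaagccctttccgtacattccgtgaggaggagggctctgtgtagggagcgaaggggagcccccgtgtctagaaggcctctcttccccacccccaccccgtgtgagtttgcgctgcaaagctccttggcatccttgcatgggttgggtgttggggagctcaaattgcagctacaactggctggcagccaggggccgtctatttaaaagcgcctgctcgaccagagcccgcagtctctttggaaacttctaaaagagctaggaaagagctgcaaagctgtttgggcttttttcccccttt
Igfals, the second of 3 listed starts, chr17:24877981-24878280, plus strand: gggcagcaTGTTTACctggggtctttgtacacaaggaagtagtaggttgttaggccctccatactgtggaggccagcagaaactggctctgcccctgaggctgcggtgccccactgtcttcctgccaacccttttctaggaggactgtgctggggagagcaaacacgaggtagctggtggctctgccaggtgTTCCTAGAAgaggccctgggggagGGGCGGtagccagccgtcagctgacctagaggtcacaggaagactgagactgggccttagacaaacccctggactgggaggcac

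The Igfbp1 window held CAAAACA at -108, counted from the start. Across all 32851 windows of the same length, 6.28% held these letters. Its neighbour Igfbp3 had none of the 5 motifs and a base composition of another kind. That window was 71.7% G or C with 37 CpG dinucleotides (observed over expected 0.961), against 54.3% and 8 CpG (0.383) for Igfbp1 and a median of 52.7% over all windows. In the Igfbp2 window 3 GC boxes stood at -113, -98 and -37, and 35.7% of all windows held at least 1. Igfbp5 had no match to the 5 motifs. The Igfals window held forkhead letters at -242, a STAT5 match at -58 and a GC box at -34, where 3.65% of all windows held the forkhead letters and 8.3% a STAT5 match. Of the other Igfals starts, the first held only a STAT5 match at -236 and the third only GC boxes at -181 and -156. A match is a description of letters only, and no match says nothing of the factor.

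The receptor gene Ghr (chr15:3267760-3533492, NCBIM37, minus strand) was read in liver and kidney at like depth-scaled levels and far lower in lung. In CPM, its lowest, median and highest strain were 20.7, 32.3 and 58.6 in liver, 12.3, 26.8 and 56.5 in kidney, and 0.506, 1.85 and 5.02 in lung. All 47 lung values lay below all 47 liver and kidney values, while liver and kidney overlapped. CC028 had the highest liver value and CC001 the highest kidney value.

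The ligand gene Igf1 (chr10:87321010-87399792, plus strand) was almost unread in these files. Liver libraries held 0 to 46 counts with a median of 4, and 19 of 47 held at most 3 counts. No lung library held more than 3 counts and no kidney library more than 2. The liver value was above the lung value of the same mouse in 44 strains, with 3 liver libraries at 0. Liver is the main source of circulating IGF peptide, so these levels need the counting rule beside them. The files kept only reads with a unique alignment and name 5 transcripts for Igf1. Genes with more than 1 named transcript passed a median of 3 counts less often than genes with 1: the shares were 29.2% and 47.9% for liver, 45.2% and 59.5% for lung, and 37.0% and 53.6% for kidney. The level of Igf1 can therefore not be compared with that of other genes here, and the gene did not pass the CPM filter of the fit between tissues, which left 9 of the 10 members there.

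Ghr (3 named transcripts), Igfbp2 (2) and Igfbp7 (2) share that limit, whereas the other members have 1 named transcript each. For Ghr the length the files gave the gene in liver was 1335 to 1353 bases, while its longest annotated transcript has 4175. Levels of Ghr per length are therefore divided by a short length.

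The carrier gene Igfals (chr17:25014600-25018955, plus strand), which encodes the acid-labile subunit, was a liver gene in these mice. Liver CPM ran from 52.6 in CC016 over a median of 142 to 277 in CC038. Kidney CPM ran from 1.05 over 6.68 to 14.98, and lung CPM from 0 over 0.652 to 2.24. No liver value overlapped either tissue. The kidney median was 4.71% of the liver median, where the hepatocyte marker sum in kidney was 0.165% of that in liver. In lung these shares were 0.459% for Igfals and 0.0574% for the hepatocyte markers.

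Igfbp1 (chr11:7097785-7102549, plus strand) was also read mainly in liver. Its liver CPM had a minimum of 9.51, a median of 56.0 and a maximum of 1697, the last from CC015 alone. Kidney followed with 0, 7.31 and 17.2. In lung the median library held 1 count, 41 of 47 held at most 3, and the highest 2 strains, CC017 and CC040, had 1.67 and 1.28 CPM. Within each mouse liver exceeded kidney in all 47 strains on this scale, although the ranges of the tissues overlapped.

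Its neighbour Igfbp3 (chr11:7106089-7113926, minus strand), the main binding protein of the large plasma complex, was highest in kidney and lowest in liver. Kidney CPM was 66.3, 161 and 364 at minimum, median and maximum. Lung CPM was 10.3, 48.2 and 103, and liver CPM was 5.66, 26.8 and 67.7. Each tissue overlapped the next.

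Igfbp2 (chr1:72871077-72899048, plus strand), prominent in fetal plasma, was read in liver at 4.91, 20.0 and 50.5 CPM. Lung values were 0, 2.24 and 23.4, with the 2 highest in CC037 and CC035 (23.4 and 19.7). The lung library of CC037 also had the highest slope on GC content of all lungs (0.734), and that of CC035 had 0.179. Kidney had at most 3 counts of Igfbp2 in 43 of 47 libraries. The adjacent Igfbp5 (chr1:72904506-72921458, minus strand), the most conserved of the family, was read at 6.75, 18.2 and 61.1 CPM in liver, 155, 319 and 536 in lung, and 227, 388 and 924 in kidney. No liver value reached any value of the other tissues. So of these neighbours Igfbp2 was highest in liver and Igfbp5 lowest there.

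Igfbp4 (chr11:98902558-98913969, plus strand), the binding protein that the protease PAPP-A cleaves, was the highest member in liver, and in CPM it separated all tissues. Liver CPM was 730, 1144 and 1620 at minimum, median and maximum, kidney CPM 208, 337 and 556, and lung CPM 42.8, 81.0 and 165, with no overlap between any pair of tissues. In TPM every pair overlapped: 33 of 47 livers lay within the kidney range, and 3 strains had the higher value in kidney.

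Igfbp6 (chr15:101974793-101979942, plus strand), which prefers the IGF2 peptide, was a lung gene among these tissues. Lung CPM was 7.24, 46.2 and 133, against 0, 0.936 and 4.46 in liver and 0, 1.47 and 3.57 in kidney. Igfbp7 (chr5:77778265-77837070, minus strand), a low-affinity binder found in vessel walls, was read at 0, 1.09 and 3.01 CPM in liver, 0.626, 3.56 and 11.9 in lung, and 1.78, 8.08 and 39.3 in kidney. The kidney maximum of Igfbp7 was in CC038, and the tissues overlapped.

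**Figure D1:**
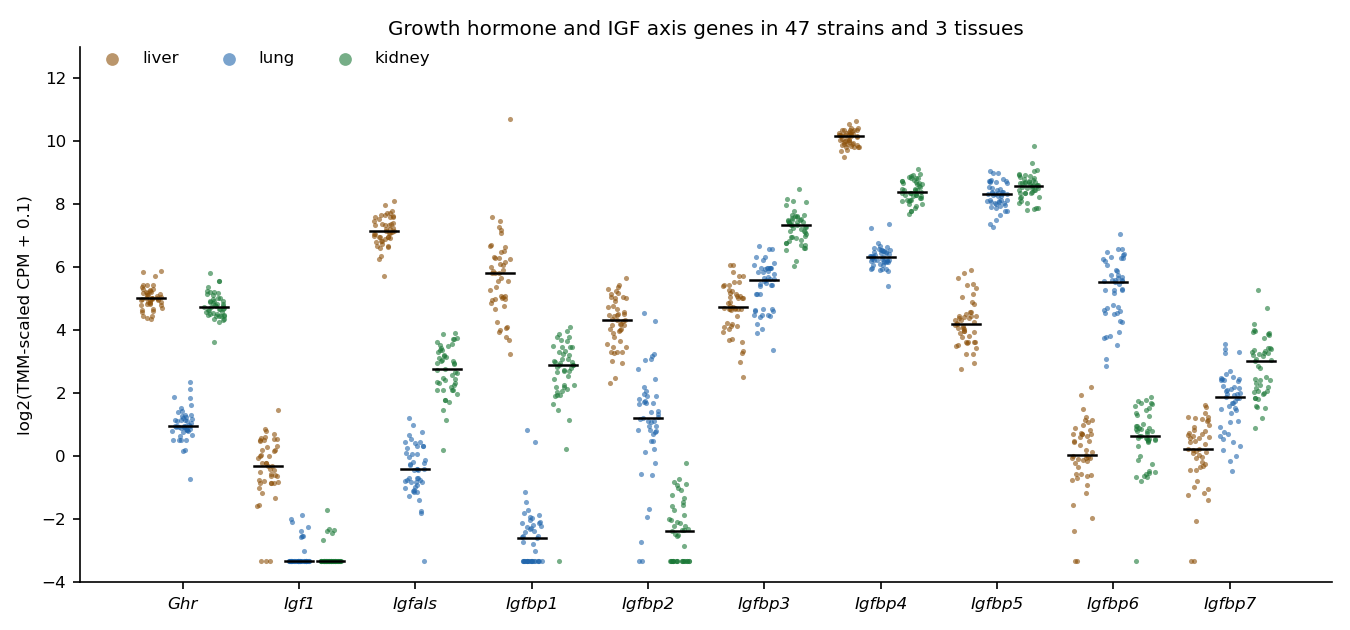
Each point is 1 library, the horizontal axis gives the 10 genes by tissue (47 strains each), the vertical axis gives log2(TMM-scaled CPM + 0.1), and black bars are medians. Igfbp4 separates all 3 tissues, Igf1 lies at the floor, and 1 liver point of Igfbp1 (CC015, 1697 CPM) stands far above the others.

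Levels of different genes were compared per length, in TPM. Igf1 is left out of this order, and the places of Ghr, Igfbp2 and Igfbp7 hold for assigned reads only, under the counting limit given above. In liver the medians fell from Igfbp4 (924) over Igfals (114), Igfbp1 (63.4), Ghr (40.9), Igfbp2 (24.2) and Igfbp3 (18.7) to Igfbp5 (5.09), Igfbp7 (1.81) and Igfbp6 (1.37). Igfbp4 was above Igfals in all 47 livers, but Igfals was above Igfbp1 in 35, Igfbp1 above Ghr in 30 and Igfbp2 above Igfbp3 in 29, so these neighbours in the order were not separated beyond the spread over strains. In lung the order was Igfbp5 (250.4), Igfbp4 (187), Igfbp6 (167), Igfbp3 (94.0), Igfbp7 (14.6), Igfbp2 (8.08), Ghr (6.97), Igfals (1.36) and Igfbp1 (0.20). There, Igfbp4 exceeded Igfbp6 in 27 strains and Igfbp2 exceeded Ghr in 28. In kidney it was Igfbp4 (506), Igfbp3 (196), Igfbp5 (192), Ghr (66.2), Igfbp7 (17.2), Igfbp1 (14.2), Igfals (9.31), Igfbp6 (3.45) and Igfbp2 (0.22). Igfbp4 led in all 47 kidneys over Igfbp3, whereas Igfbp3 and Igfbp5 changed places between strains (Igfbp3 higher in 28).

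The summed TPM of the 7 binding protein genes had a different make-up in each organ. In liver Igfbp4 made up a median of 88.1% and was the largest part in 46 strains, with Igfbp1 next at 5.81%. The exception was CC015, where Igfbp1 made up 63.0%. In lung no gene dominated: Igfbp5 gave 34.4% (largest in 30 strains), Igfbp4 25.2% (largest in 6), Igfbp6 21.9% (largest in 10) and Igfbp3 11.7% (largest in 1). In kidney Igfbp4 gave 54.2% and was largest in 46 strains, Igfbp5 gave 19.8% and Igfbp3 19.2%. CC032 was the kidney in which Igfbp5 was largest. Counted in CPM, with no division by length, Igfbp5 took the largest part in all 47 lungs (median 63.5%) and in 27 kidneys (41.0%, against 39.4% for Igfbp4). Which gene led in kidney therefore depends on that division. In lung Igfbp5 had the largest median share on both scales, but the number of strains in which it led depends on it.

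**Figure D2:**
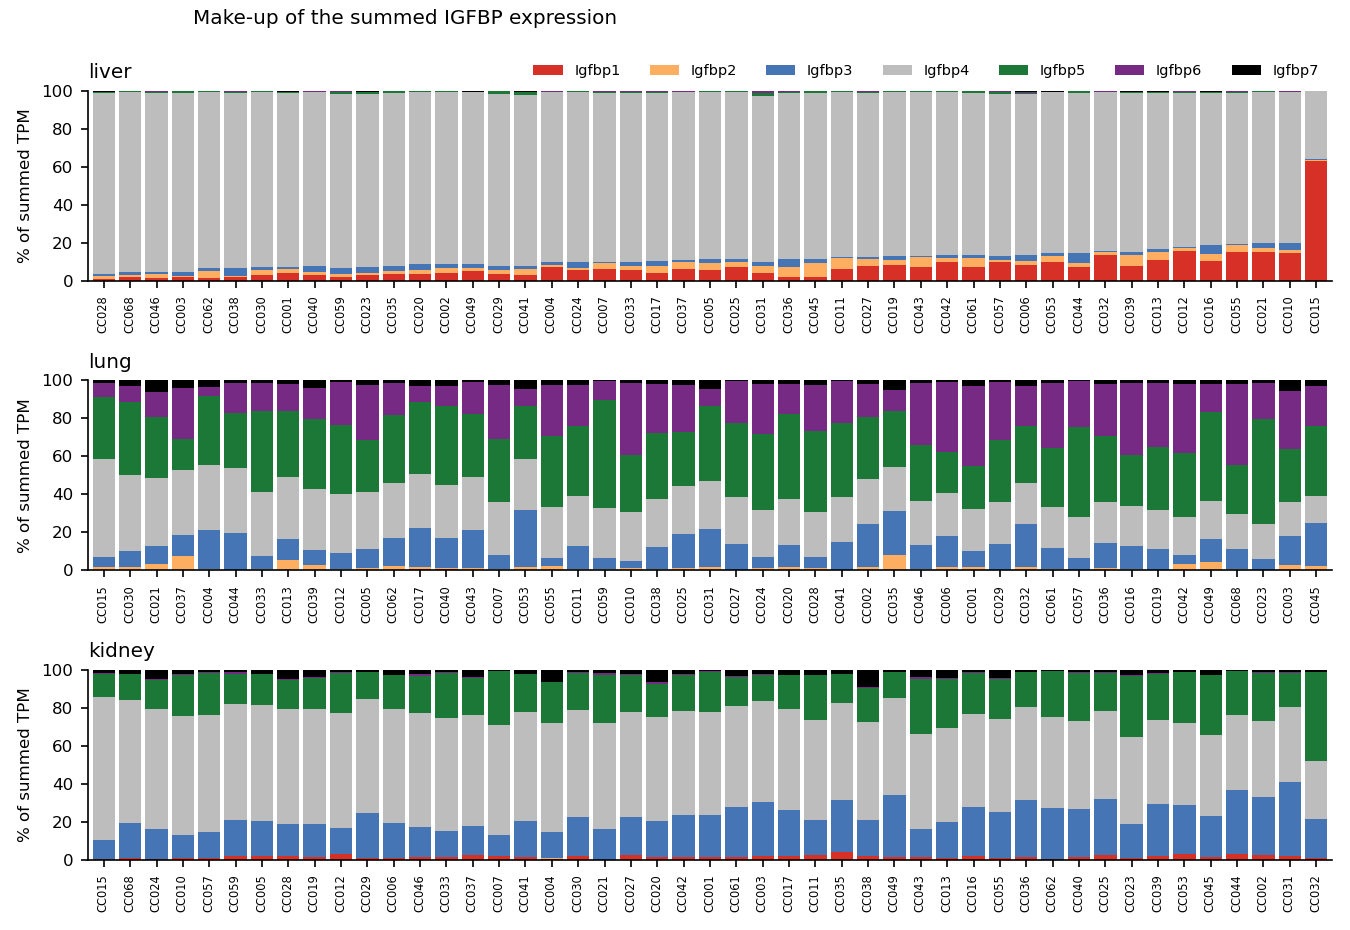
Each bar is 1 strain, ordered within a tissue by its Igfbp4 share, and colours give the percent of the summed TPM of Igfbp1 to Igfbp7. Igfbp4 fills most of liver (median 88.1%) except in CC015, lung is divided among Igfbp5, Igfbp4, Igfbp6 and Igfbp3, and kidney among Igfbp4, Igfbp5 and Igfbp3.

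The comparison of tissues asked where each member differed within the same mice. It was fitted with limma-voom over 12127 genes with tissue and strain as terms, and a gene was called at a Benjamini-Hochberg q of 0.1 or less and at least a 2-fold change (log2 of 1). Between liver and lung 8 of 9 tested members were called, 5 higher and 3 lower in liver, where 55.0% of all tested genes were called (23.9% higher and 31.0% lower). Between liver and kidney 7 of 9 were called, 4 higher and 3 lower in liver, against a background of 36.4% (15.6% higher and 20.8% lower). Between lung and kidney 8 of 9 were called, 2 higher and 6 lower in lung, against 46.1% (25.5% higher and 20.6% lower). The median size of the log2 change over the 9 members was 4.01, 2.56 and 3.18 in these comparisons, and 1.17, 0.649 and 0.882 over all tested genes. On CPM the tissues did not overlap at all for 6 members between liver and lung, 4 between liver and kidney and 3 between lung and kidney, where 25.8%, 13.2% and 22.4% of all tested genes were so separated.

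Against lung, the liver had more of the receptor, the carrier and Igfbp1, Igfbp2 and Igfbp4. The log2 change was 4.01 (SE 0.054) for Ghr, 7.62 (SE 0.10) for Igfals, 9.03 (SE 0.28) for Igfbp1, 2.93 (SE 0.21) for Igfbp2 and 3.80 (SE 0.057) for Igfbp4. Igfbp5, Igfbp6 and Igfbp7 were lower in liver, with changes of -4.02 (SE 0.090), -5.36 (SE 0.12) and -1.52 (SE 0.18). Limma's adjusted p ran from 1.2e-86 for Igfals to 7.1e-13 for Igfbp7 among these 8. Igfbp3 had a log2 change of -0.70 (SE 0.12, adjusted p 6.1e-08), below the fold required. The change of Igfbp1 rests on lung counts near 0 and depends on the prior count, so it gives no exact ratio.

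Against kidney, Igfals, Igfbp1, Igfbp2 and Igfbp4 were higher in liver, with log2 changes of 4.45 (SE 0.085), 3.21 (SE 0.20), 7.09 (SE 0.25) and 1.77 (SE 0.056). Igfbp3, Igfbp5 and Igfbp7 were lower in liver, by -2.50 (SE 0.12), -4.24 (SE 0.089) and -2.56 (SE 0.18). Limma's adjusted p of these 7 was 1.2e-24 or smaller. Ghr differed by 0.30 (SE 0.050) and Igfbp6 by -0.43 (SE 0.12), neither reaching 2-fold. Igfbp2 rests on kidney counts near 0 in the same way as Igfbp1 in lung. The direction of Ghr depended on the scaling: its liver median was above that of kidney in CPM but below it in TPM (40.9 against 66.2), and with total counts in place of TMM the log2 change was -0.62.

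Between lung and kidney, Igfbp2 and Igfbp6 were higher in lung, with log2 changes of 4.17 (SE 0.24) and 4.92 (SE 0.11). Ghr (-3.71, SE 0.054), Igfals (-3.18, SE 0.098), Igfbp1 (-5.82, SE 0.27), Igfbp3 (-1.79, SE 0.12), Igfbp4 (-2.03, SE 0.057) and Igfbp7 (-1.04, SE 0.18) were lower in lung. Limma's adjusted p was 7.2e-08 for Igfbp7 and 3.7e-27 or smaller for the others. The changes of Igfbp1 and Igfbp2 rest on counts near 0 in lung and in kidney respectively, and give no exact ratio. Igfbp5 differed by -0.22 (SE 0.087, adjusted p 0.017) and was not called.

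The choice of scaling moved these numbers. Without TMM the median of all tested genes shifted by -1.37 between liver and lung, -0.949 between liver and kidney and 0.424 between lung and kidney. The share of all calls that were higher in the first tissue then moved from 43.5% to 13.7%, from 42.9% to 14.5% and from 55.2% to 68.8%. Under total counts and under log2(TPM + 1), Ghr between liver and kidney and Igfbp5 between lung and kidney changed sign, and every other tested member kept its sign in each comparison. With total counts, Igfbp3 between liver and lung (-2.06) and Igfbp6 between liver and kidney (-1.40) passed 2-fold, while Igfbp4 between liver and kidney (0.83) and Igfbp7 between lung and kidney (-0.65) no longer did.

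**Figure D3:**
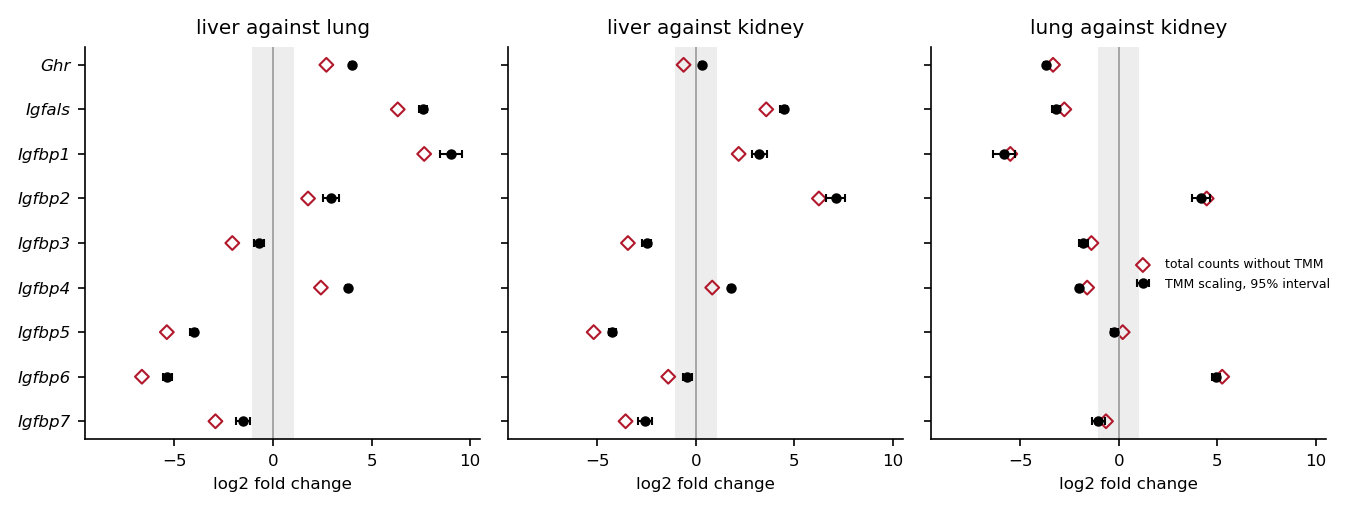
Filled points give the fitted log2 fold change of the 9 tested members with 95% intervals, open diamonds give the same fit with total counts in place of TMM, and the grey band marks changes under 2-fold. Igfals and Igfbp1 lie far to the liver side in both liver panels, Igfbp5 far to the other side, and the diamonds of the liver panels are shifted toward lower liver values.

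Other genes of the pathway were described by a list of 37 that did not include the members, of which 25 passed the low-count filter. Among the 12 that did not were Gh, Ghrh, Igf2, Jak2 and Stat5a. Of the 25 tested, 4 were higher and 10 lower in liver than in lung (56.0% called, background 55.0%), 7 higher and 8 lower in liver than in kidney (60.0%, background 36.4%), and 6 higher and 7 lower in lung than in kidney (52.0%, background 46.1%). These splits moved with the scaling: with total counts in place of TMM they were 1 higher and 19 lower in liver than in lung, 3 and 11 in liver against kidney, and 9 and 3 in lung against kidney. Prlr, the prolactin receptor, a relative of the growth hormone receptor, was higher in liver than lung by 6.18 (SE 0.15). Stc1 and Pappa2, an inhibitor and a member of the pappalysin proteases that cleave binding proteins, were lower in liver than lung by -4.61 (SE 0.13) and -4.11 (SE 0.20). The insulin receptor-related gene Insrr was lower in liver and in lung than in kidney, by -6.55 (SE 0.14) and -5.98 (SE 0.13). Stc1, Pappa2 and Insrr had a median of 0 CPM in liver, and Insrr one of 0.181 in lung. Their changes rest on counts near 0 and give no exact ratio. The serine protease Htra1 and the IGF receptor gene Igf1r were lower in liver than kidney, by -5.20 (SE 0.069) and -5.05 (SE 0.052). Htra3, another such protease, and Socs3, a feedback inhibitor of cytokine receptors, were higher in lung than kidney, by 3.36 (SE 0.16) and 3.24 (SE 0.12). Adjusted p from limma was 4.1e-37 or smaller for each of these.

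The receptor genes were picked for this account after their values were seen. Igf1r had a median of 10.3 CPM in liver, 163 in lung and 365 in kidney, with no overlap between liver and the other tissues. Igf2r, the receptor that clears the IGF2 peptide, had 175, 170.0 and 359. Insr, the insulin receptor, had 3.84, 0.838 and 1.79 CPM, and in TPM its medians were 0.66, 0.38 and 0.58. Its log2 change was 2.22 (SE 0.095) between liver and lung and 1.14 (SE 0.094) between liver and kidney, against -3.93 (SE 0.052) and -5.05 (SE 0.052) for Igf1r.

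Across strains the members varied to very different degrees. The SD of log2 CPM over 47 livers was 0.239 for Igfbp4, which 11.8% of 10199 genes fell below, and 0.344 for Ghr (percentile 35.3). It was 1.30 for Igfbp1 (percentile 94.6), where counting alone would give 0.115. Without CC015 the SD of Igfbp1 was 1.07 (percentile 87.5). In kidney the same gene had an SD of 1.197 (percentile 96.3), with the highest value in CC035. That SD includes CC021 with 0 counts, whose log2 value is set by the prior count, while the next lowest kidney, CC062, had 1.08 CPM. The kidney SD without CC021 was not computed. On log2(TPM + 1) the SD of Igfbp1 was 0.991 in kidney and 1.39 in liver.

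In lung Igfbp2 had an SD of 1.70, above 99.2% of 11696 genes, where counting alone would give 0.435. That counting value leaves out CC019 and CC057, which held 0 counts, so it understates the counting part. Igfbp6 had an SD of 0.996 (percentile 94.8) and Igfbp7 one of 0.950 (percentile 93.8). Igfbp4 and Igfbp5 were steadier there, at 0.327 (percentile 42.9) and 0.410 (percentile 56.7). In kidney Igfbp7 had an SD of 0.952 (percentile 90.4), while Ghr, Igfbp4 and Igfbp5 lay between 0.345 and 0.392 (percentiles 43.2 to 50.9). Part of the spread moved with the base composition of the library: the Spearman correlation with the GC slope of the library was 0.751 for Igfbp7 in kidney, 0.579 for Igfbp7 in lung, 0.450 for Igfbp4 in kidney and 0.432 for Igfbp2 in lung. The transcripts of these genes are 58.6%, 58.7% and 62.1% G or C for Igfbp7, Igfbp4 and Igfbp2, where the median tested gene had 50.2%. The part of the GC slope in these spreads was not tested.

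A single liver stood apart in Igfbp1. CC015 had 1697 CPM (9721 counts), 8.83 times the next strain, CC055 with 192, and 32.0 times the median of the other 46 (53.1). Of 10199 genes, only Pus7l (12.6 times the next) stood further above the next library in that liver. After Igfbp1 came the heat shock gene Hspb1 (5.06 times), then Baiap2l1 (4.48), Btbd19 (4.27) and Ddit4 (4.10). Hsp90aa1 (1595 CPM, 2.74 times the next) and Hspa1a (2.57 times), also heat shock genes, were 13th and 14th. The other members were within the range of the remaining livers there: Igfals 132.5 CPM (29th from the highest), Ghr 35.4 (16th), Igfbp4 1325 (5th) and Igfbp3 12.2 (43rd).

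Genes that share the insulin and glucocorticoid control of Igfbp1 were also extreme in that library, and these values are a description of 1 mouse. Among genes induced by fasting, Pck1 (7954 CPM, 2.74 times the median of the others), G6pc (2518, 3.99 times), Irs2 (87.8, 3.33 times) and Tat (6624, 4.47 times) were the highest of 47, and Pdk4 was second. Of the glucocorticoid-induced genes, Fkbp5 (330.4, 7.03 times), Tsc22d3 (66.7, 3.70 times) and Zbtb16 (133.9, 4.15 times) were the highest, while Sgk1 was 19th. The insulin-induced Srebf1 was lowest (0.524), but Acly was 12th and Pnpla3 18th from the highest. The clock output genes Dbp (3.84) and Nr1d1 (2.97) were lowest of 47. Ddit4 and the PPAR-alpha target Cyp4a14 were highest, at 21.8 and 219 times the median. Hepatocyte markers were not extreme, with Alb 34th from the highest. The liver library had 8306436 counts and 17.3% of TPM in Rn45s and Lars2. The hour of sampling and feeding state of single mice are not given in the sources used here, and their part was not tested.

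The lung and kidney of the same CC015 mouse were low in several other binding proteins, but not in all. Its lung was the lowest of 47 for Igfbp3 (10.3 CPM) and next to lowest for Igfbp5 (166) and Igfbp6 (8.41). Its kidney was lowest for Igfbp5 (227), next to lowest for Igfbp3 (73.3) and the third from the lowest for Igfbp1 (2.13) and Igfbp6 (0.533). Igfbp4, by contrast, was 5th from the highest in that kidney (473.5 CPM) and 11th in that lung (91.8), Igfbp2 was 23rd in lung and Igfbp7 26th in kidney. The lung library had 81.7% of TPM in Rn45s and Lars2, and its Igfbp3 value rests on 27 counts. The kidney library had 35.2%.

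**Figure D4:**
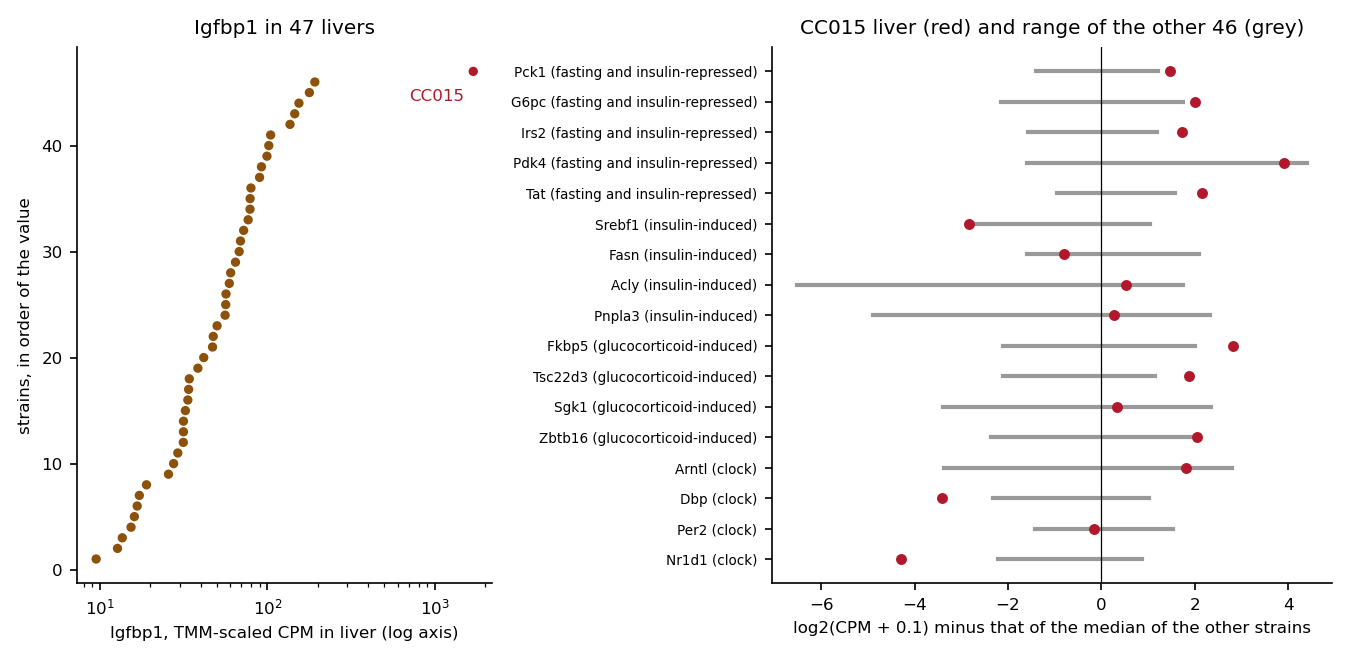
Left, Igfbp1 in TMM-scaled CPM (log axis) in 47 livers in order of value, with CC015 in red at 1697. Right, log2 difference of CC015 (red) from the median of the other 46 livers for genes of the fasting, insulin, glucocorticoid and clock lists, with the range of those 46 as a grey line; red points past the line are beyond every other strain.

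Across all 47 livers Igfbp1 followed part of the same genes. Correlations were computed on rank inverse normal TPM after TMM scaling, with 100000 two-sided permutations and q over the 470 relations between the members and a panel of hormone, fasting and clock genes. In total 15 of the 470 had q of 0.1 or less, and 7 of them were of Igfbp1. The permutation q was 0.026 for Tsc22d3 (r = 0.553, rho = 0.547) and 0.027 for Acot3 (0.495, rho 0.486), Srebf1 (-0.494, rho -0.503), Cpt1a (0.489, rho 0.416) and Tat (0.488, rho 0.444), while Pck1 had r = 0.456 (rho 0.410, permutation q = 0.058) and Irs2 r = 0.438 (rho 0.412, permutation q = 0.073). Without the 2 livers farthest from the median, r was 0.473 for Tsc22d3, 0.467 for Acot3, -0.476 for Srebf1, 0.404 for Cpt1a, 0.457 for Tat, 0.418 for Pck1 and 0.321 for Irs2. By list, all 5 measured fasting genes had r above 0 (3 called), all 4 glucocorticoid-induced genes had r above 0 (1 called), and all 5 insulin-induced genes had r below 0 (1 called). Without CC015, 8 of the 15 relations were still called. Of Igfbp1, the correlations with Tat (0.438), Srebf1 (-0.441), Pck1 (0.406) and Irs2 (0.353) then had permutation q between 0.11 and 0.27, and those with Tsc22d3 (0.491), Acot3 (0.509) and Cpt1a (0.477) stayed under 0.1.

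Igfbp4 in liver was inversely related to 2 of the 5 measured insulin-induced genes, while no member of that list had r above 0 and the list's r ran from -0.567 to -0.0070 (median -0.38). It had r = -0.567 with Pnpla3 (rho -0.602, permutation q = 0.024) and r = -0.511 with Fasn (rho -0.526, permutation q = 0.027), the fatty acid synthase. It also had r = 0.5004 with the male-biased Selenbp2 (permutation q = 0.027) and r = 0.442 with Zbtb16 (permutation q = 0.073). Leaving out the 2 farthest livers gave -0.553, -0.535, 0.467 and 0.484 in that order. The inverse relations rest on TMM scaling: in TPM as deposited r was -0.00057 for Pnpla3 and 0.216 for Fasn. Igf1 had r = -0.492 with Pnpla3 (permutation q = 0.027), though on a median of 4 counts, and r = -0.456 without the 2 farthest livers. Igfbp5 had r = 0.437 with the clock gene Nr1d1 (permutation q = 0.073), which was 0.350 without the 2 farthest livers and 0.390 without CC015 (permutation q = 0.21).

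Ghr and Igfals varied together in liver, as both did with a male-biased gene. Between Ghr and Igfals r was 0.520 (rho 0.514, two-sided permutation q = 0.0071 over 101 member pairs, n = 47), and 0.471 without the 2 farthest livers. It was 0.320 in strains at or below the median depth and 0.694 in those above. Male-biased Cyp2d9 had r = 0.482 with Igfals (permutation q = 0.036) and 0.433 with Ghr (permutation q = 0.075), or 0.443 and 0.391 without the 2 farthest. Both members had r above 0 with each of the 11 male-biased genes of the panel, with 1 called for each. The median was 0.262 for Ghr and 0.260 for Igfals. Since Ghr and Igfals varied together, these results are not independent. The pattern was not particular to them: Igfbp4 had r above 0 with 10 of the 11, at a median of 0.2535, with 1 called. Neither Ghr nor Igfals was called with any of the 3 STAT5 feedback genes Cish, Socs2 and Socs3.

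The correlation of Ghr with Igfals differed between tissues. It was -0.068 in lung and 0.136 in kidney, and permuting the tissues within strains gave a two-sided permutation q of 0.0033 for the difference from lung (0.588) and 0.084 for that from kidney (0.384), over 8 differences tested. Neighbours Igfbp1 and Igfbp3 had r = -0.215 in liver and 0.407 in kidney, and this difference of -0.621 had a permutation q of 0.011. With the GC slope taken out, the liver and kidney difference of Ghr with Igfals was 0.307 (permutation q = 0.19) and no longer called. None of these 3 differences was called above the median depth, where that of Igfbp1 with Igfbp3 was -0.399 (permutation q = 0.72), and only the latter (-0.595, permutation q = 0.056) was called at or below it. Lung counts of Igfals had a median of 10, so its lung correlation carries more counting error than that in liver. In lung, counting alone would give an SD of log2 CPM of 0.571 for Igfals, where the SD over strains was 0.836. For Ghr in lung these were 0.339 and 0.510. In liver they were 0.0609 and 0.461 for Igfals, and 0.1255 and 0.344 for Ghr.

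Of the 101 member pairs within a tissue 7 had q of 0.1 or less. Besides Ghr with Igfals these were, in liver, Igf1 with Igfbp4 (r = 0.477, permutation q = 0.020, on a median of 4 counts of Igf1), in lung, Igfbp2 with Igfbp7 (0.639, permutation q = 0.0010) and Igfbp3 with Igfbp7 (0.415, permutation q = 0.072), and in kidney, Igfbp4 with Igfbp7 (0.428, permutation q = 0.071), Igfbp1 with Igfbp3 (0.407, permutation q = 0.075) and Igfals with Igfbp4 (0.401, permutation q = 0.076). Spearman's rho of these 6 was 0.533, 0.617, 0.348, 0.445, 0.400 and 0.429, and r without the 2 farthest libraries was 0.510, 0.648, 0.342, 0.415, 0.415 and 0.410. Taking the GC slope of the library out of both genes left r = 0.499 for Igfbp2 with Igfbp7 (permutation q = 0.027), 0.268 for Igfbp3 with Igfbp7, 0.085 for Igfbp4 with Igfbp7 and 0.285 for Igfals with Igfbp4, the last 3 no longer called. Without CC015, Igfbp1 with Igfbp3 in kidney had r = 0.371 and permutation q = 0.12.

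Of 23 relations of the same gene in a pair of tissues, only that of Igfbp3 in lung and kidney had q of 0.1 or less. Its lung and kidney values had r = 0.601 (rho 0.603, two-sided permutation q = 4.6e-04, n = 47) and r = 0.606 without the 2 farthest strains. Within strains at or below the median depth r was 0.614 and above it 0.504, with the GC slope taken out 0.574, and without CC015 0.571. Liver Igfbp3 had r = -0.083 with lung and 0.201 with kidney. Whether the correlations of the 3 tissue pairs differ was not tested. Igfbp1 between liver and kidney had r = -0.227 (permutation q = 0.36), and Ghr between liver and kidney 0.336 (permutation q = 0.12). Of the 23, 19 were above 0.

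**Figure D5:**
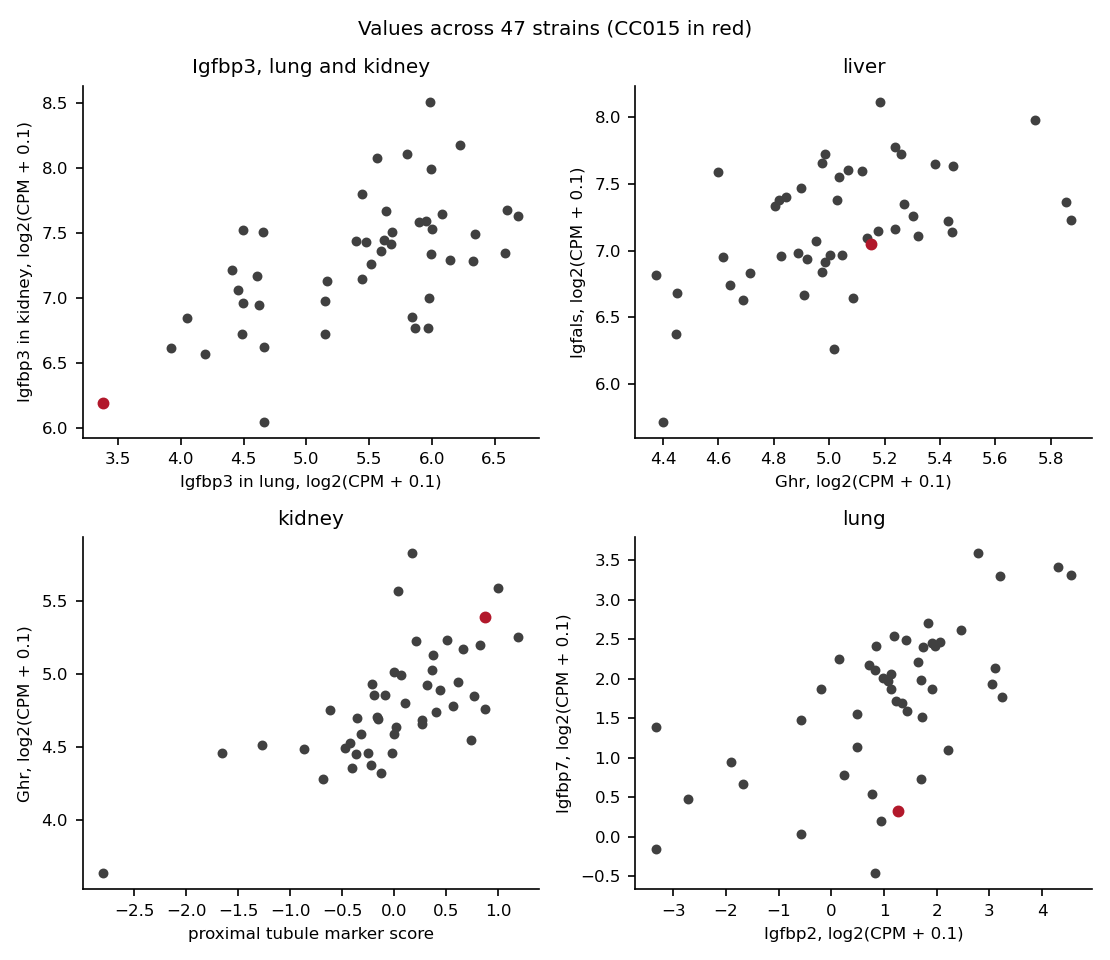
Each point is 1 of 47 strains, with CC015 in red; axes give log2(TMM-scaled CPM + 0.1), or the mean standardised level of 5 proximal tubule markers. Igfbp3 rises together in lung and kidney (r = 0.601), Ghr with Igfals in liver (0.520), Ghr with the tubule score in kidney (0.680) and Igfbp2 with Igfbp7 in lung (0.639).

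Scores of cell type markers moved with some members. In bulk tissue, fewer cells of a type and less RNA per cell cannot be told apart. In kidney Ghr rose with the proximal tubule score (r = 0.680, rho 0.698, two-sided permutation q = 0.0015 over 308 relations with marker scores) and at 0.620 without the 2 farthest kidneys. It was 0.642 and 0.637 in strains below and above the median depth and 0.719 with the GC slope taken out. In lung Igfbp5 and Igfbp6 followed the 4 mesothelial markers, with r = 0.612 (permutation q = 0.0021) and 0.531 (permutation q = 0.010), or 0.565 and 0.568 without the 2 farthest lungs. Igfbp6 followed the alveolar type 2 score as well (0.511, permutation q = 0.012; 0.505 without the 2 farthest). In liver Igfbp6 had r = 0.621 with the mesothelial score (permutation q = 0.0015) and 0.484 with the fibroblast score (permutation q = 0.025), or 0.671 and 0.573 without the 2 farthest livers. The mesothelial markers summed to only 0 to 13.7 CPM in liver, with Wt1 at most 3 counts at the median, and CC031 had both their highest sum and the highest liver Igfbp6 (4.46 CPM). These 6 were the called relations of 308, and the part of cell make-up in the levels of the members was not tested.

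For each member the genes most alike across strains, by Spearman's rho of TMM-normalized TPM in its tissue of highest mean TPM, were also listed. In liver Igfbp1 was most like Oat (0.678), Hpd (0.660) and Mat1a (0.614), enzymes of amino acid and methionine metabolism. Igfals was most like Keg1 (0.662), Igfbp4 most like Sec31a (0.631) and Igfbp2 most like Eva1b (0.638). Igf1 was most like Noa1 (0.596), but its liver counts were near the floor, so its order of strains carries much counting error. In kidney Ghr was most like Abhd3 (0.652) and Igfbp3 most like Isoc1 (0.519). Igfbp7 in kidney reached 0.846 with Amn and 0.845 with Hist1h4c, beside its 0.751 with the GC slope of the library. In lung Igfbp5 was most like Serping1 (0.594) and Igfbp6 most like Marveld1 (0.694). Between 9002 (liver) and 12389 (lung) genes were searched per tissue, and the values are given as a description over 47 strains, with no test.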

How the data were processed

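RNA was sequenced as 50-base single-end reads from ribosome-depleted total RNA. The authors aligned reads to strain pseudo-genomes built on mouse Build37 (mm9) with STAR 2.5.3a, kept unique alignments and estimated gene levels with RSEM on RefSeq transcripts. The deposited files hold expected counts, TPM and FPKM per gene for each of 141 libraries; FPKM was not used. Expected counts were rounded (25 values were not whole), and depth ran from 1738046 to 42158454 counts per library. No pair of libraries held identical values. Counts at or below 3 were treated as a floor, which covers counting error only.

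Genes above 1 CPM in at least 30% of libraries (12127) were tested with limma 3.58.1 (voom, TMM scaling from edgeR 4.0.16) with tissue and strain as fixed effects. Strain was the block, since the 3 tissues of a strain came from 1 mouse. Batch, a term of the study's own model, is not among the labels and was left out. Genes were called at q of 0.1 or less with a log2 change of at least 1; q of 0.01 was an alternative. Correlations used rank inverse normal TMM-normalized TPM, 100000 two-sided permutations over strains and Benjamini-Hochberg q within each family, for members with a median above 3 counts. The fits and correlations were tested on simulated data.

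The members and lists were chosen with earlier results of these data known. Text names all members, the 3 related genes with the largest called change per tissue pair, the 5 strongest called correlations per family and tissue (for the panel and member pairs all called ones, chosen after values were seen), and the 3 genes most alike. Alternatives were DESeq2 1.42.0, edgeR's quasi-likelihood test, other scalings, filters, strains split at the median depth and strains left out. Leaving out CC015 and taking out the GC slope of libraries were added after seeing the data. GC content was known for 87.4% of tested genes. Positions follow GENCODE on NCBIM37, and promoter windows RefSeq on GRCm38.p6; no coordinates were converted. Some genes that the rules would name are not reported here.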

Additional observations from a re-analysis of the deposited data

Results flagged for a closer look

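The correlation of Ghr with Igfals differed between tissues of the same mice. It was 0.520 in liver and -0.068 in lung, a difference of 0.588 (two-sided permutation of tissues within strains, p = 4.1e-04, q = 0.0033 over 8 differences, n = 47). Against kidney, where it was 0.136, the difference was 0.384 (permutation p = 0.032, q = 0.084), and with the GC slope of the libraries taken out it was 0.307 (permutation q = 0.19). The neighbours Igfbp1 and Igfbp3 had a correlation of -0.215 in liver and 0.407 in kidney, a difference of -0.621 (permutation p = 0.0028, q = 0.011), which was -0.530 without CC015 (permutation q = 0.019). In strains above the median depth it was -0.399 and no longer called. Neither difference of Ghr with Igfals was called in strains above the median depth or in those at or below it. In lung both Ghr and Igfals carried more counting error than in liver. The cause of these differences was not tested.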

How the results depend on the processing

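Without the strain as a block 8, 7 and 8 members were called, as with it, and no member's call changed, while related genes higher in liver than lung went from 4 to 3. Over all alternatives 8 to 9 members were called between liver and lung, 6 to 9 between liver and kidney and 7 to 9 between lung and kidney. Of 468 refitted changes of 36 genes and comparisons, 445 kept direction and side of the threshold. Ghr between liver and kidney reversed to -0.62 (total counts), -0.63 (log2(TPM + 1)) and -0.642 (log2(TPM + 0.1)), and Igfbp5 between lung and kidney to 0.20, 0.29 and 0.29. Igfbp4 between liver and kidney fell below 2-fold (0.81 to 0.83) under these, and Igfbp7 between lung and kidney under these and both DESeq2 settings (-0.98 to -0.52). Without a fold threshold 23 related genes were called between liver and kidney and 21 between lung and kidney.

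Called correlations kept their sign under every setting except Igfbp4 with Fasn, 0.216 in TPM without TMM. Numbers of calls moved. Same gene between tissues, 1 was called, against 5 on log2 CPM, 2 in TPM without TMM, 3 without CC032 and CC042, 0 above the median depth and 7 with the GC slope taken out. Member pairs went from 7 to 52 in TPM without TMM, 2 at or below and 1 above the median depth, 4 with the GC slope taken out and 4 without CC015. Panel relations went from 15 to 26 on log2 CPM, 95 in TPM without TMM, 1 at or below and 1 above the median depth and 8 without CC015. Marker scores went from 6 to 16 on log2 CPM, 13 in TPM without TMM and 0 at or below the median depth, and tissue differences of correlations from 3 to 1 and 0 in the depth classes. TPM without TMM is not corrected for shifts of a whole library, and each depth class holds 23 or 24 strains. The cause of these moves in the numbers of calls was not tested. Counts were at or near the floor for Igf1 in lung and kidney, Igfbp1 in lung and Igfbp2 in kidney, so values there have little precision.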
